A study of Mus musculus with 9 samples.

Results

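The transcripts of 8 genes that carry the insulin signal from the cell surface to the Akt kinases were followed in hair follicle stem cells of mice under dietary restriction. They were chosen by symbol, and all 8 were found among the 35006 gene symbols of the count tables: the insulin receptor gene Insr, the receptor substrate genes Irs1 and Irs2, the PI3K genes Pik3r1, Pik3ca and Pik3ip1, and the kinase genes Akt1 and Akt2. The cells were taken from C57BL/6J mice and sorted by flow cytometry as CD34+ and integrin alpha6+, the surface pattern of the bulge, where the resting stem cells of the follicle are kept. In the ad libitum group (AL, 5 libraries) individually housed mice ate without limit. In the dietary restriction group (DR, 4 libraries) each mouse was given daily 70% of the food eaten by AL mice of like body weight and the same gender. The labels describe pools of 3 mice and name more than one animal facility, without saying which libraries came from which. They give no age, hair cycle stage or time since the last meal, and do not say whether each library is its own pool, so p-values measure the spread between these libraries, which may be partly technical.

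Insulin binding switches on the tyrosine kinase of its receptor, which then phosphorylates the docking proteins IRS-1 and IRS-2. PI3K is recruited to these through its regulatory subunit p85 alpha, the product of Pik3r1, and its catalytic subunit p110 alpha, the product of Pik3ca, makes the membrane lipid that brings Akt to its activating kinases. Active Akt drives growth and glucose use and keeps FoxO transcription factors out of the nucleus, and FoxO factors are known in other tissues to raise Insr and Irs2 transcription when insulin is low. These are transcript data: they show neither receptor activity nor Akt phosphorylation.

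The libraries held 26119459 to 33559312 counts over genes, and each member had at least 594 counts in every library. Counts of markers called in this paragraph stand beside 19.0% of all tested genes called higher in DR and 21.7% called lower (edgeR adjusted p under 0.05). Bulge markers were abundant, although 5 of 11 were lower and 1 higher in DR. Among them Cd34, the sorting antigen, fell from 1083 ± 579 CPM in the 5 AL libraries to 479 ± 102 CPM in the 4 DR libraries (mean ± SD; edgeR adjusted p = 0.016). CPM are counts scaled to library size by the TMM method. Cell cycle state differed with diet: all 20 G2 and M phase genes listed were lower in DR, and their summed level was 556 to 1052 CPM in AL replicates 1 to 4, 144 CPM in AL replicate 5 and 25.1 to 61.7 CPM in DR. Endothelial markers summed to 28.8 CPM in AL replicate 1, 52.1 in DR replicate 1 and 35.2 in DR replicate 2, against 3.39 to 14.1 in the other libraries. Immune markers reached 51.3, 73.0 and 51.9 CPM in those same libraries, and 16.4 to 33.5 in the others. Of 8 adipocyte markers 6 stayed under 1 CPM in every library, and Fabp4 made up most of the list's highest sum of 48.6 CPM in DR replicate 1. Fibroblast markers summed to 85.3 to 141 CPM in AL and 23.3 to 44.4 CPM in DR. Of the 5 tested, Col1a1, Col1a2 and Thy1 were lower in DR, and Pdgfra was higher, with a mean of 1.07 CPM for AL and 3.02 CPM for DR. Melanocyte markers summed to 112 to 231 CPM in AL and 125 to 177 CPM in DR. Mitf made up most of that sum and did not pass, while 3 of 6 tested were lower in DR: Dct, which fell from 7.24 to 1.60 CPM, Tyrp1 and Kit. Sebocyte sums did not overlap, at 87.1 to 113 CPM in AL and 128 to 224 CPM in DR. Of 6 tested, 1 rose, the lipid enzyme gene Scd1 (log2 change 1.02), and 1 fell. Muscle sums did not overlap either, at 1.20 to 1.54 CPM in AL and 1.65 to 2.98 CPM in DR. Differentiated epidermal markers summed to 2131 to 4956 CPM in AL and 2432 to 5902 CPM in DR, and 2 of 8 rose, Sbsn and Krtdap. What these other cells and the cell cycle add to the values below was not tested. In such bulk samples fewer cells of a type and less RNA per cell cannot be told apart.

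The receptor and the PI3K genes rose under dietary restriction, while Akt1 and Akt2 did not pass the test. Insr, Irs2, Pik3r1, Pik3ca and Pik3ip1 rose by 1.63-fold to 2.18-fold, Irs1 fell short of the threshold, and no member fell. Thus 5 of 8 members rose, where 2941 of all 15447 tested genes (19.0%) rose and 40.7% changed in either direction by edgeR's quasi-likelihood test at an adjusted p of 0.05. The members were more abundant than most tested genes: from 62.2% (Irs1) to 98.4% (Pik3r1) of these had a lower mean log2 CPM. The share of risen genes at like levels was not computed. The median log2 change (fitted log2 ratio of DR over AL) was 0.81 over the 8 members and -0.02 over all tested genes. In 4 members every DR library lay above every AL library, as in 15.9% of tested genes, and in none did every DR library lie below (17.0% of tested genes). Groups without overlap in either direction made up 32.9% of tested genes. Of all tested genes, 3.55% had a larger log2 change than Pik3ip1 and 8.76% a larger one than Pik3ca, the ends of the range for the 5 that rose.

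**Figure D1:**
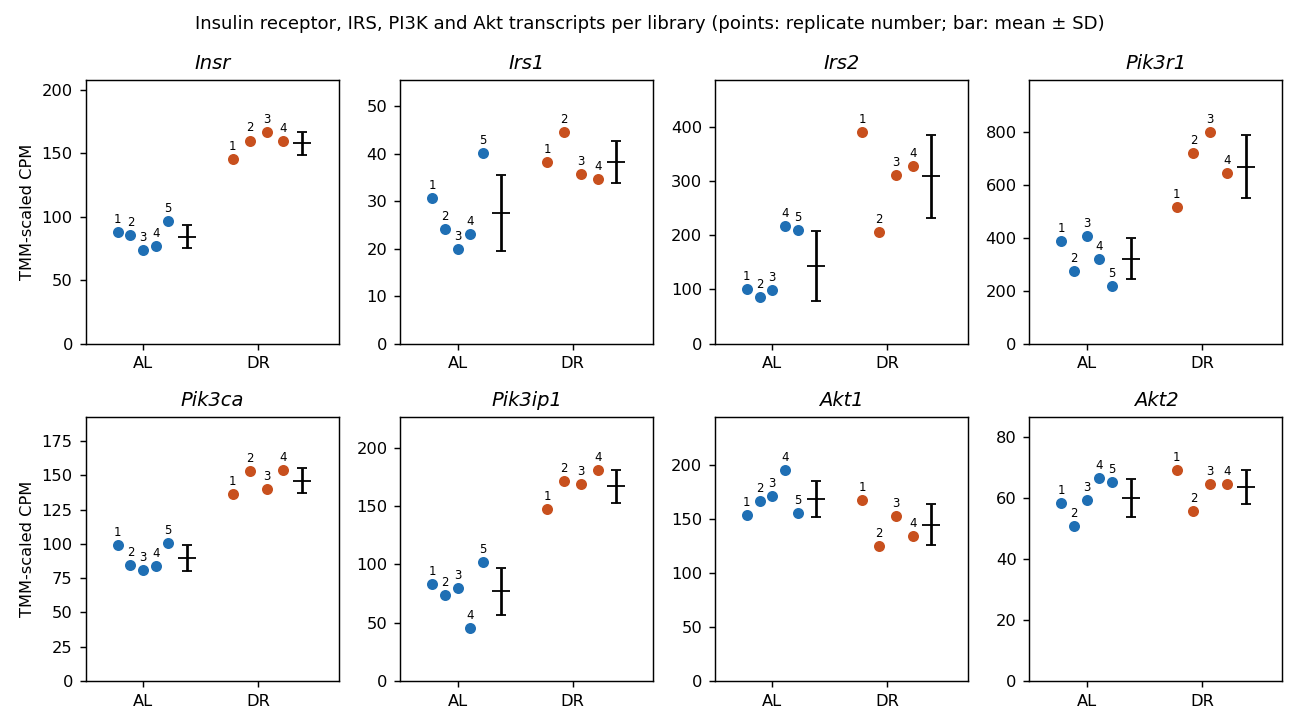
TMM-scaled CPM (vertical axes, from 0) of the 8 members in the 5 AL and 4 DR libraries; points carry the replicate number and bars give mean ± SD. All DR points lie above all AL points for Insr, Pik3r1, Pik3ca and Pik3ip1, while the groups overlap for Irs1, Irs2, Akt1 and Akt2.

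Insr, which encodes the receptor itself, had the smallest p of the members. It stood at 88.3, 85.4, 73.7, 77.1 and 96.3 CPM in AL replicates 1 to 5 and at 145, 160.2, 167 and 160.2 CPM in DR replicates 1 to 4. The lowest DR library was well above the highest AL library, AL replicate 5. The means were 84.2 ± 9.02 CPM for AL (SD, n = 5) and 158 ± 8.95 CPM for DR (SD, n = 4), a log2 change of 0.91 (SE 0.09, 95% interval 0.70 to 1.11, edgeR adjusted p = 6.1e-05). The gene of the closely related IGF-1 receptor, Igf1r, rose by the same fitted amount, with 47.4 ± 6.52 CPM under AL against 89.3 ± 10.5 CPM under DR (log2 change 0.91, SE 0.12, edgeR adjusted p = 2.0e-04). The number of Insr counts per Igf1r count was therefore alike in both diets, 1.78 in AL and 1.78 in DR as geometric means. The log2 difference of this ratio was -0.00 (exact two-sided permutation p = 0.873 over libraries).

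Irs2 and Irs1, the docking proteins next in line, behaved less uniformly. Irs2 is the substrate known to be raised in fasting liver, and it was at 101, 86.4, 99.8, 218 and 211 CPM in AL replicates 1 to 5 and at 389.9, 206, 312 and 328 CPM in DR replicates 1 to 4. The diets overlapped, because AL replicates 4 and 5 reached the level of DR replicate 2. Irs2 rose from 143 ± 65.2 to 309 ± 76.6 CPM (SD, n = 5 and 4; log2 change 1.11, SE 0.30, 95% interval 0.44 to 1.77, edgeR adjusted p = 0.013). Without AL replicate 1 and DR replicates 1 and 2, the libraries with more endothelial and immune RNA, the log2 change was 1.06 and no longer passed (edgeR adjusted p = 0.068).

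The spread of Irs2 within each diet ran beside that of immediate early genes, which respond within minutes to signals and to the handling of tissue. A list of 12 of them (Fos, Fosb, Jun, Junb, Egr1, Atf3, Ier2, Ier3, Dusp1, Nr4a1, Btg2 and Zfp36) was put together after the data were seen. It summed to 59696, 67635, 73462, 101634 and 95922 CPM in AL replicates 1 to 5 and to 93523, 55935, 88960.5 and 88990.2 CPM in DR replicates 1 to 4. AL replicates 4 and 5 were thus highest of AL, and DR replicate 2 lowest of DR, for the list and for Irs2 alike. Differentiated epidermal markers also set AL replicates 4 and 5 apart, with sums of 2131 and 2156 CPM against 4058 to 4956 CPM in AL replicates 1 to 3. DR replicate 1, highest of DR for Irs2, had the lowest such sum of DR (2432 CPM), but DR replicate 3 and not 2 had the highest (5902 CPM). The part of the immediate early response or of epidermal cells in the Irs2 difference was not tested.

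Irs1 was the least abundant member, with 30.6, 24.2, 19.9, 23.1 and 40.0 CPM in AL replicates 1 to 5 and 38.2, 44.5, 35.7 and 34.7 CPM in DR replicates 1 to 4. AL replicate 5 alone lay within the DR range. Its means were 27.6 ± 7.98 CPM under AL against 38.3 ± 4.4 CPM under DR, and the log2 change of 0.47 (SE 0.18, 95% interval 0.07 to 0.88) did not pass (edgeR adjusted p = 0.058). Without AL replicate 5, the AL library with the fewest cell division transcripts, it was 0.65 and passed (edgeR adjusted p = 0.00339). On all libraries Irs1 also passed with the Wald test of DESeq2 (adjusted p = 0.038) and with limma-voom (0.035). The same held for limma-voom with quality weights (0.014) and edgeR with 1 surrogate variable (0.021). In 16 of 22 alternatives Irs1 did not pass, among them every other fit that left out 1 library. Its log2 change was lowest, at 0.36, without DR replicates 1 and 2. Without AL replicate 1 as well it was 0.39 (edgeR adjusted p = 0.283). In current gene models a gene on the other strand, Gm9747, shares 2822 exonic bases with Irs1. The tables list it at 0 in all libraries. If the 2 models also overlapped in the annotation used and strand was ignored in counting, neither of which the sources used here give, reads from the shared bases would be set aside as ambiguous. There were 4.94 Irs2 counts per Irs1 count in AL and 7.90 in DR as geometric means, a log2 difference of 0.68 (exact two-sided permutation p = 0.175; adjusted over 6 ratios, 0.229).

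**Figure D2:**
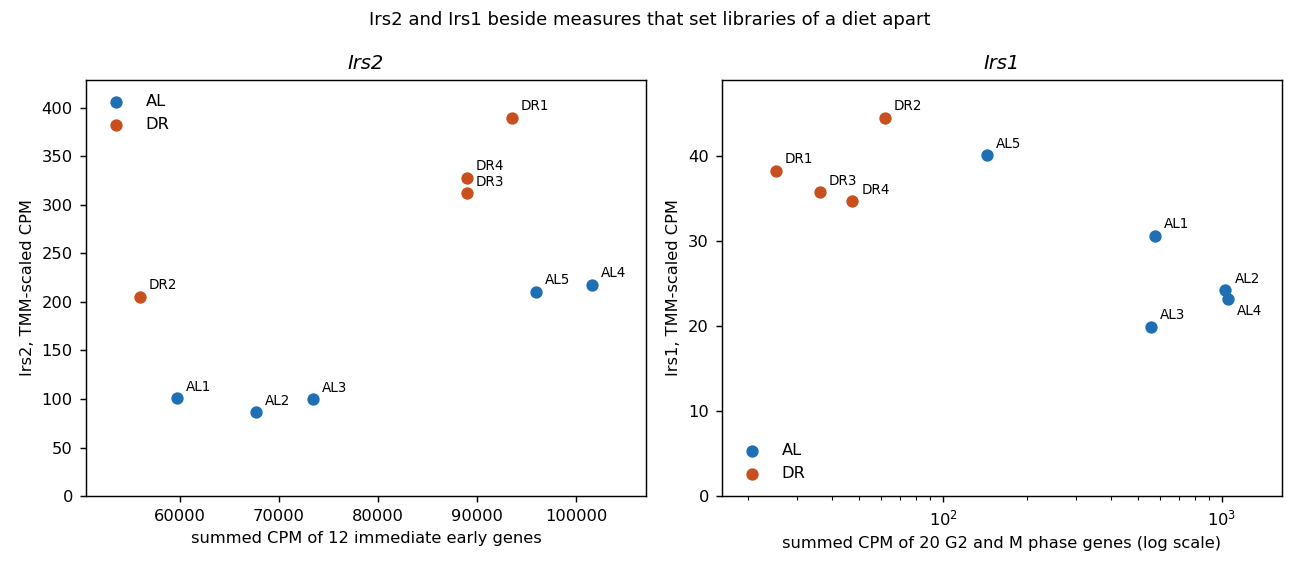
Left, Irs2 CPM against the summed CPM of 12 immediate early genes; right, Irs1 CPM against the summed CPM of 20 G2 and M phase genes on a log axis; each point is 1 library. On the left AL replicates 4 and 5 are the highest AL points on both axes and DR replicate 2 the lowest DR point on both, and on the right AL replicate 5 (144 CPM for the division list) lies between the other AL libraries and DR.

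The start regions of Irs1 and Irs2 are shown because both hold the same pair of short motifs, letters known from factors that act on insulin-responsive genes. RefSeq promoters (250 bases before to 50 after each start, GRCm38.p6) were found for 7 members, all but Insr, with 12 promoters in all. They were searched on both strands for the E-box CACGTG, the insulin response element CAAAACA, which reads TGTTTTG on the opposite strand, and the FoxO motif GTAAACA, which there reads TGTTTAC. Capitals mark the motifs found.
Irs1, GRCm38.p6, chr1:82291514-82291585, minus strand: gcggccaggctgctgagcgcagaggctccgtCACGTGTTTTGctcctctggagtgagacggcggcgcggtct
Irs2, GRCm38.p6, chr8:11008930-11009008, minus strand: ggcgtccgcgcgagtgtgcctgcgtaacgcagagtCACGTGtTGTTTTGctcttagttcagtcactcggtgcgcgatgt
Akt1, GRCm38.p6, chr12:112675009-112675080, minus strand: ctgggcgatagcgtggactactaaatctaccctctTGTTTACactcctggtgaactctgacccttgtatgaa

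In Irs2 the E-box began at position -44 from the start and TGTTTTG at -37, with 1 base between them. In Irs1 they began at -115 and -111 and shared 2 bases, and a second TGTTTTG began at -32. Of 32851 promoters in the table, 7.15% held the E-box, 6.28% the insulin response element and 0.408% both. The exact letters GTAAACA, searched as the FoxO motif and held by 3.65% of promoters, were found in 1 of the 2 Akt1 promoters, beginning at -161. They were in no other member's window, which does not mean that those windows lack FoxO sites of other letters, such as the insulin response element. No match was found for Pik3r1, Pik3ca, Pik3ip1 or Akt2. These matches are letters in a window and show no binding.

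Among the PI3K genes, Pik3r1, whose products hold and stabilise the catalytic subunit, was the member with the most CPM. It was at 386, 273, 405, 319 and 219 CPM in AL replicates 1 to 5 and at 515, 718, 798 and 643 CPM in DR replicates 1 to 4. The groups did not overlap, and AL replicate 5 was lowest of all. AL replicate 3 was highest of AL, DR replicate 3 highest of DR and DR replicate 1 lowest of DR, as for the summed differentiated epidermal markers. For those markers AL replicate 4, not 5, was the lowest AL library. Pik3r1 rose from 321 ± 77.7 to 669 ± 120.1 CPM (SD, n = 5 and 4; log2 change 1.06, SE 0.19, 95% interval 0.64 to 1.48, edgeR adjusted p = 0.0014). The gene makes p85 alpha and shorter forms from other start sites, which the counts per symbol do not tell apart.

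Pik3ca, the catalytic partner, varied little within a diet. It was at 99.1, 84.4, 80.9, 83.6 and 100.3 CPM in AL replicates 1 to 5 and at 136, 153, 140.3 and 154 CPM in DR replicates 1 to 4, with no overlap. It rose from 89.6 ± 9.26 to 146 ± 9.04 CPM (log2 change 0.70, SE 0.09, 95% interval 0.50 to 0.91, edgeR adjusted p = 2.3e-04). There were 3.5 Pik3r1 counts per Pik3ca count in AL and 4.53 in DR, a log2 difference of 0.37 that did not pass (exact two-sided permutation p = 0.190; adjusted over 6 ratios, 0.229). The regulatory and the catalytic subunit genes thus both rose, and a shift between them was not detectable with this number of libraries.

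Pik3ip1 encodes a membrane protein known to bind p110 and restrain PI3K, and it rose along with the kinase it restrains. It was at 83.4, 73.4, 79.9, 45.6 and 102 CPM in AL replicates 1 to 5 and at 147, 171, 169 and 181 CPM in DR replicates 1 to 4. The groups did not overlap, AL replicate 4 being lowest and AL replicate 5 highest of AL. The rise from 76.9 ± 20.4 to 167 ± 14.2 CPM was the largest fitted among the members (log2 change 1.12, SE 0.18, 95% interval 0.72 to 1.52, edgeR adjusted p = 8.1e-04), though its interval spans the values of Irs2 and Pik3r1. Relative to Pik3ca it was at 0.841, 0.871, 0.987, 0.546 and 1.02 counts per count in AL and at 1.08, 1.12, 1.21 and 1.18 in DR. This ratio did not overlap between diets and differed by 0.46 on the log2 scale (exact two-sided permutation p = 0.0159, the smallest these group sizes allow; adjusted over 6 ratios, 0.0952, which does not pass). Without AL replicate 4 the log2 difference was 0.30.

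Akt1, the widely expressed growth kinase, did not share the rise. It was at 153, 166, 171, 195 and 155 CPM in AL replicates 1 to 5 and at 168, 124, 152 and 134 CPM in DR replicates 1 to 4, so the groups overlapped. The means were 168 ± 16.9 and 145 ± 19.2 CPM (log2 change -0.22, SE 0.11, 95% interval -0.46 to 0.02, edgeR adjusted p = 0.14). That interval ends below a rise of the size seen for Insr or the PI3K genes. Akt2, the isoform best known for glucose uptake in muscle and fat, was at 58.5, 51.0, 59.5, 66.7 and 65.3 CPM in AL replicates 1 to 5 and at 69.3, 55.9, 64.8 and 64.5 CPM in DR replicates 1 to 4. Its means of 60.2 ± 6.25 and 63.6 ± 5.6 CPM differed by a log2 change of 0.08 (SE 0.10, 95% interval -0.13 to 0.29, edgeR adjusted p = 0.54). As for Irs2, AL replicates 4 and 5 were the highest AL libraries for Akt2, and DR replicates 1 and 2 the highest and lowest DR libraries.

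Akt2 counts per Akt1 count were 0.358 in AL and 0.442 in DR as geometric means, a log2 difference of 0.30 (exact two-sided permutation p = 0.0317; adjusted over 6 ratios, 0.0952). Neither this ratio nor any other given here passed after adjustment. A single ratio at the smallest possible p, 0.0159, would still be at 0.0952 after adjustment over 6 ratios, so it could not pass by itself. Not passing is therefore no sign that a ratio stayed the same.

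**Figure D3:**
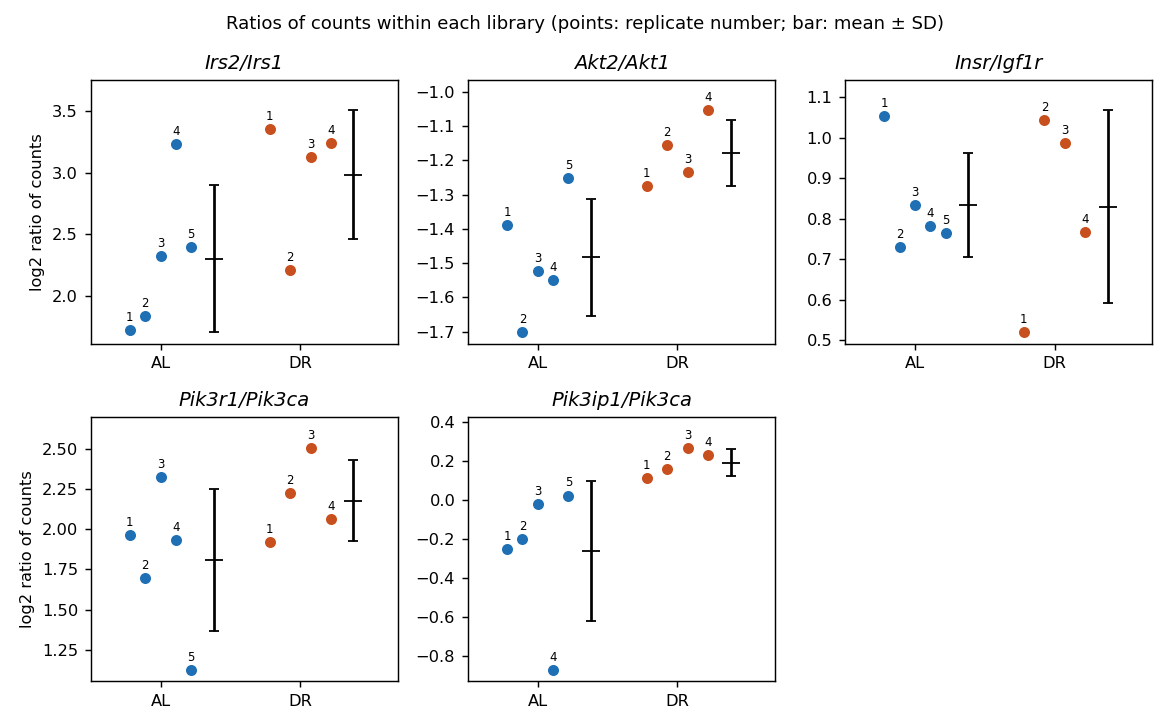
Log2 ratios of counts of gene pairs within each library (vertical axes do not start at 0), with replicate numbers and mean ± SD for AL and DR. Only Pik3ip1/Pik3ca has all DR points above all AL points, and Insr/Igf1r has equal means in both diets.

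AL replicate 5 took an end position among the AL libraries for several members. It had the highest AL level of Insr, Irs1, Pik3ca and Pik3ip1, as well as of Igf1r (56.7 CPM), which places it on the DR side. For Pik3r1 it was the lowest AL library, which is the side away from DR. Beside this stands its low level of cell division transcripts given above. AL replicate 5 also had the most Cd34 (2041 CPM, against 531 to 1108 CPM in the other AL libraries) and the lowest endothelial sum. Its differentiated epidermal sum was 2156 CPM and that of AL replicate 4 was 2131 CPM, against 4058 to 4956 CPM in AL replicates 1 to 3. The part of cell cycle state or of cell content in these differences was not tested. Without AL replicate 5 the 5 members still rose, and Irs1 joined them.

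Levels can be compared between genes only per length, here as CPM per kilobase of merged exons of coding transcripts (GENCODE M21). On that scale the order in AL was Akt1 (62.5), Pik3r1 (42.4), Pik3ip1 (26), Irs2 (22.6), Akt2 (12.5), Pik3ca (9.89), Insr (9.0) and Irs1 (3.02). In DR it was Pik3r1 (88.4), Pik3ip1 (56.6), Akt1 (53.7), Irs2 (48.8), Insr (16.9), Pik3ca (16.1), Akt2 (13.2) and Irs1 (4.18). Akt1 led in AL and was overtaken by Pik3r1 in DR, and Akt2 passed from above to below Insr and Pik3ca. Neighbours closer than the sum of their SDs were Pik3r1 and Pik3ip1, Pik3ip1 and Irs2, Irs2 and Akt2, and Pik3ca and Insr in AL. In DR they were Pik3ip1 and Akt1, Akt1 and Irs2, and Insr and Pik3ca. The order was the same when the longest coding transcript was used as the length. No source used here gives the gene models that the authors counted on, so these levels are approximate.

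**Figure D4:**
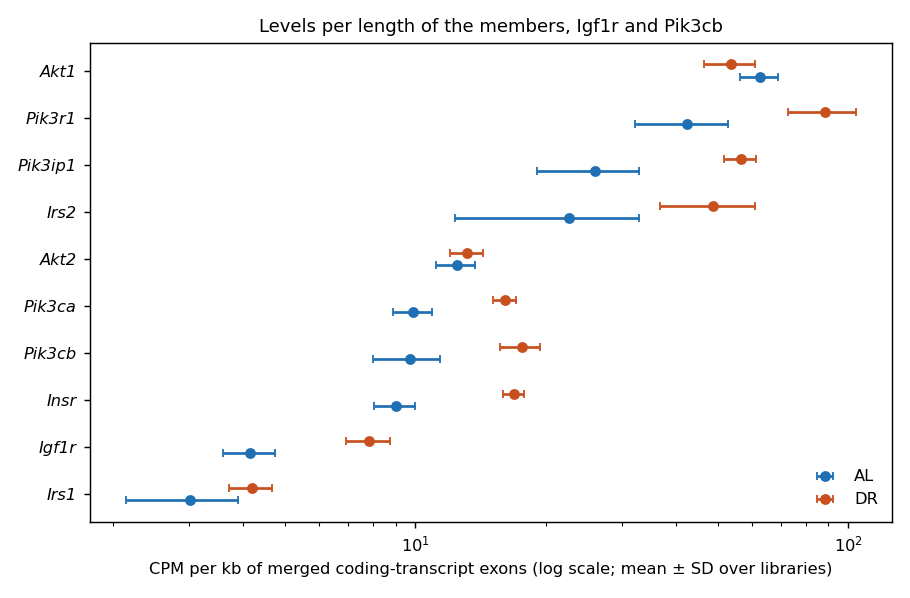
CPM per kilobase of merged exons (log axis; mean ± SD) of the 8 members, Igf1r and Pik3cb in AL (5 libraries) and DR (4 libraries), ordered by the AL level. Akt1 is at the top in AL with 62.5 and Irs1 at the bottom with 3.02, and the Akt genes are those with the smallest distance between diets.

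Of 68 other genes of the pathway, 63 were tested; 23 (36.5%) rose and 10 (15.9%) fell, beside 19.0% and 21.7% of all tested genes. With upper-quartile scaling 17 rose and 13 fell, and with library size only 18 rose and 13 fell, so the surplus of rises was smaller there. Without AL replicate 3, 17 rose and 10 fell. The median log2 change of these genes was 0.16. The receptor, adaptor and docking group had 4 risen and none fallen of 9 tested. The 44.4% called was near the 40.7% of all tested genes called in either direction, while 19.0% of all tested genes rose. Besides Igf1r, Sos1 rose, the exchange factor that links receptors to Ras (0.39, SE 0.09). So did the docking protein genes Gab1 (0.22, SE 0.08) and Gab2 (0.61, SE 0.22). Gab1 and Gab2 lost their calls under 12 and 11 of 22 alternatives.

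Inhibitors that act at the receptor moved in opposite directions: 3 rose and 4 fell of 8 (87.5% called, beside 40.7% of all tested genes). Ptpn1, the tyrosine phosphatase PTP1B that switches off the insulin receptor, was at 73.2, 67.6, 74.1, 83.1 and 69.8 CPM in AL replicates 1 to 5 and at 134, 111, 158 and 159 CPM in DR replicates 1 to 4 (log2 change 0.93, SE 0.11, edgeR adjusted p = 1.7e-04). Enpp1, a membrane enzyme reported to inhibit the receptor, rose by 0.76 (SE 0.12). Grb14, an adaptor that blocks the receptor kinase, fell from 21.3 ± 5.11 to 6.69 ± 0.606 CPM (log2 change -1.67, SE 0.18, edgeR adjusted p = 9.0e-05), with all DR libraries below all AL libraries. Ptprf, the receptor phosphatase LAR, fell by 0.66 on the log2 scale (SE 0.13). The other 3 calls, named after their values were seen, overlapped between diets. Socs3, an inhibitor induced by cytokines, rose by 0.94 (SE 0.26, edgeR adjusted p = 0.015). Grb10 (-0.59, SE 0.20, edgeR adjusted p = 0.036) and Ptpn2 (-0.35, SE 0.12, edgeR adjusted p = 0.041) fell. As for Irs2, AL replicates 4 and 5 were the highest AL libraries for Socs3, and DR replicates 1 and 2 the highest and lowest DR libraries.

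Of 10 other PI3K genes tested, 3 rose and 1 fell (40% called, close to the 40.7% of all tested genes). Pik3cb, which encodes p110 beta, rose from 62.9 ± 11.1 to 114 ± 12.1 CPM (log2 change 0.86, SE 0.13, edgeR adjusted p = 4.7e-04). Pik3c2a (0.55, SE 0.08) and Pik3c3 (0.47, SE 0.10), kinases of endocytic and autophagic membranes, rose as well. Pik3cg, the p110 gamma gene best known from immune cells, was low throughout and fell from 3.84 ± 1.61 to 0.989 ± 0.643 CPM (log2 change -1.94, SE 0.47, edgeR adjusted p = 0.0069).

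Of 14 lipid phosphatases and Akt inhibitors, 5 rose and none fell. The 35.7% called was no more than the 40.7% of all tested genes called in either direction, while 19.0% of all tested genes rose. Inpp5k, a phosphatase that degrades the PI3K lipid product, rose from 87.1 ± 12.9 to 176 ± 23.6 CPM (log2 change 1.01, SE 0.13, edgeR adjusted p = 1.9e-04). The Akt phosphatase gene Phlpp2 (0.39, SE 0.13), the PP2A subunit gene Ppp2r2a (0.34, SE 0.12) and Inpp5d (1.75, SE 0.63) passed near the threshold and lost their calls under 8 of 22, 12 of 22 and 13 of 19 alternatives. Inpp5d, a phosphatase of blood cells, was under 1 CPM on average in both diets, and without DR replicates 1 and 2, where immune markers were highest, its log2 change was 0.25. The fifth was Phlpp1 (0.32), named after its value was seen. So was Inpp4b, another lipid phosphatase gene, which was lower in every DR library than in any AL library but did not pass (49.0 ± 12.8 and 35.4 ± 5.18 CPM, log2 change -0.47, SE 0.17, edgeR adjusted p = 0.052).

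Of 8 genes listed for the activation of Akt, 4 rose and 2 fell (75% called, beside 40.7%). Pdpk1, the kinase PDK1 that phosphorylates Akt, rose from 92.1 ± 5.06 to 120 ± 11.0 CPM (log2 change 0.38, SE 0.08, edgeR adjusted p = 0.0047). Subunits of mTORC2, the complex that completes Akt activation, were split. Rictor, its defining subunit, rose from 119 ± 11.9 to 197 ± 22.1 CPM (log2 change 0.73, SE 0.10, edgeR adjusted p = 3.9e-04), and Mtor, named after its value was seen, rose by 0.41. Mlst8 fell from 18.2 ± 2.03 to 7.26 ± 2.29 CPM (log2 change -1.33, SE 0.20, edgeR adjusted p = 5.6e-04), and Mapkap1, which encodes the subunit SIN1, fell by 0.52 on the log2 scale (SE 0.08), both with no overlap between diets. Prr5l, a partner of the complex, had 0 to 5 counts in AL libraries and 12 to 21 in DR libraries (log2 change 2.70, SE 0.48), so its fold rests on very few reads.

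Of 14 Akt substrates, 4 rose and 3 fell (50% called, beside 40.7%). The FoxO genes Foxo3 (139 ± 29.5 to 295 ± 32.8 CPM, log2 change 1.09, SE 0.15) and Foxo1 (64.1 ± 14.5 to 127 ± 25.4 CPM, 0.99, SE 0.17) rose, each with no overlap between diets. Tsc2, which holds back mTORC1 until Akt phosphorylates it, fell by 0.43 on the log2 scale (SE 0.08), and Bad, a death-promoting protein that Akt inactivates, fell by 0.52 (SE 0.09). The other 3 calls, named after their values were seen, were Foxo4 (0.64) and Akt1s1 (0.40), which rose, and Acly (-0.35), which fell.

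**Figure D5:**
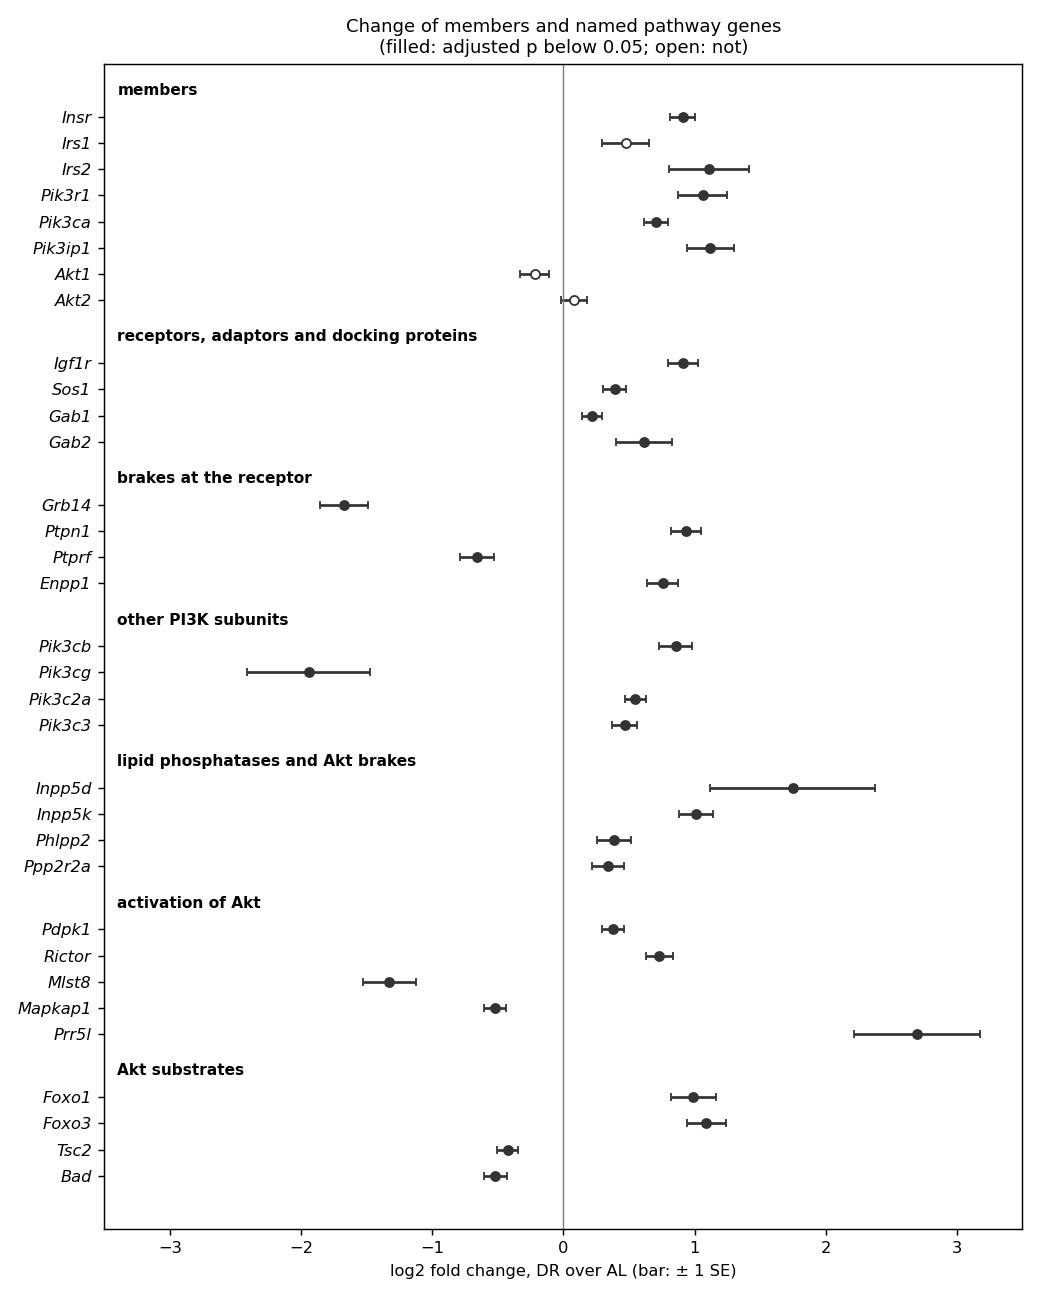
Log2 fold change of DR over AL (horizontal axis; bars ± 1 SE) of the 8 members and the named pathway genes by group; filled points have an edgeR adjusted p under 0.05. Points for Insr, Irs2, Pik3r1, Pik3ca and Pik3ip1 are filled and lie between 0.70 and 1.12, while those of Irs1, Akt1 and Akt2 are open.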

How the data were processed

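RNA of the sorted cells was made into TruSeq RNA v2 libraries and read as single reads of 51 cycles, per the labels' protocols. The authors deposited raw read counts per gene symbol, 1 table per library, with no normalization. TopHat2 2.1.0 with Bowtie, HTSeq 0.11.2, FastQC 0.11.5 and the build mm9 are named, per the submitters' processing notes. No source used here gives the annotation or the strand and multiple-mapping settings. Of 35012 lines, 6 name no gene; they held 25.9% to 30.7% of the counts of a library and were left out. The kit does not mark strand, so overlapping genes on opposite strands cannot be told apart.

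The 15447 genes kept by filterByExpr were tested with edgeR 4.0.16 (R 4.3.3): TMM scaling, a quasi-likelihood fit on diet over all 9 libraries, and Benjamini-Hochberg adjustment over all tested genes at 0.05. SEs are those implied by the F statistic, and 95% intervals use the fit's degrees of freedom and are unadjusted. Ratios of counts within a library were compared by exact two-sided permutation (scipy 1.17.1). On simulated counts for these 15447 genes a change of 1.5-fold was found in 22% of the genes given it and one of 2-fold in 61%. Far fewer genes were given a change there than the 6290 called in the real data, which makes the adjustment stricter. These shares may therefore understate what the real fit finds. False calls were 5.68% of all calls. No pair of libraries of a diet was alike within sampling error (chi-square of 24.6 to 109.6 for each degree of freedom).

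The members, gene lists and tests were chosen with earlier results of these data known. Named are the members, up to 4 called genes with the smallest p of each pathway list, Igf1r and Pdpk1, and for each member the genes most like it over the libraries. Some planned genes and 1 of the 6 ratios are not reported here. Of the planned checks, protein comparisons were not made: protein sequences were not used here. Alternatives were other scalings and filters, DESeq2 1.42.0, limma-voom (limma 3.58.1), 1 surrogate variable (sva 3.50.0), robust dispersion, a block for the replicate number, a threshold of 0.01 or 0.1, and fits without 1 or more libraries.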

Additional observations from a re-analysis of the deposited data

Results flagged for a closer look

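In 4 of the 82 groups of libraries examined, 1 library lay far from the others of its diet; chance flags about 1 group in 20. None was a group of a member. Phlpp2 was at 18.0 CPM in AL replicate 3, with the other AL libraries at 24.3 to 25.8 CPM. Ppp2r2a was at 88.7 CPM in AL replicate 4, with the others at 61.5 to 65.7 CPM. Inpp5d was at 0.614 CPM in AL replicate 1, with the others at 0.109 to 0.240 CPM. Bad was at 25.6 CPM in AL replicate 1, with the others at 28.7 to 29.9 CPM.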

How the results depend on the processing

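Across 24 alternatives 4 to 6 members rose and none fell; the count was 4 without AL replicate 1 and DR replicates 1 and 2 and at an adjusted p of 0.01, and leaving out 1 library gave 5 to 6. Insr, Pik3r1, Pik3ca and Pik3ip1 kept their calls in all 22 refits and Irs2 in 21. Irs1 passed in 6 and did not in 16 (adjusted p 0.00339 to 0.283 over the 22). Akt1 (adjusted p 0.055 to 0.33) and Akt2 (0.31 to 0.87) passed in none. At an adjusted p of 0.01, 15 pathway genes rose, and 1866 genes rose and 2071 fell overall; the cause is the stricter threshold. Library size only and upper-quartile scaling moved the share of higher calls from 46.8% to 38.8% and 39.2%. The log2 difference of Insr/Igf1r was near 0 and changed sign without AL replicate 1 (0.05), DR replicate 1 (0.10) or DR replicate 4 (0.02), ranging from -0.075 to 0.10 when 1 library was left out; the cause was not tested. Equal replicate numbers are not said to pair libraries, and the deviations of such pairs correlated at 0.04, 0.13, 0.23 and 0.03, and AL replicate 1 correlated better with DR replicate 2 (0.42). With the replicate block 6433 genes were called, and the Irs1 log2 fold change was 0.66 and passed (edgeR adjusted p = 0.00371). AL replicate 5 has no DR library of its number, so in that fit it adds nothing to the diet estimate. The Irs1 result is thus no separate check from the fit without AL replicate 5 (0.65, edgeR adjusted p = 0.00339). Within the 4 pairs the log2 difference was 0.70 for Irs2/Irs1 and 0.20 for Pik3r1/Pik3ca, where the exact test cannot pass. Leaving out a library reduces the number of libraries tested, and in the simulation some changes of 2-fold were missed even with all 9 libraries.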

Other observations

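Over the 9 libraries the genes most like each member were sought among 11288 others whose log2 CPM averaged 2 or more, by Pearson's r of log2 CPM. These values describe likeness only; all libraries share the diet split, which raises r for any gene that changed. Those most like Insr were Rere (r = 0.99), a nuclear corepressor, Fzd6 (0.99), a Wnt receptor, and Tbc1d8 (0.99). Irs2 was closest to Klhl21 (0.99), Rnd1 (0.99) and Mknk2 (0.98), Irs1 to Nbeal1 (0.99) and Abca3 (0.98), and Pik3ca to Gm17354 (0.996), Napg (0.995) and Rb1cc1 (0.995). Pik3ip1 was closest to Tbc1d17 (0.99), and Pik3r1 to Inpp5b, a lipid phosphatase gene (0.97), and Cdh3, the P-cadherin gene (0.97). The Akt genes were closest to Rgs2 (0.97, Akt1) and to Klf4 (0.96, Akt2).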
